A study of Mus musculus with 24 samples.

Results

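Testes of mice that lack NSun2 were compared with wild-type testes at 49 days of age, across every gene that the arrays could measure. The comparison holds 12 of the 24 arrays of the series, 6 of knock-out (KO) and 6 of wild-type (WT) testes, chosen by the genotype and age that the sample descriptions give, and was normalized and fitted on these 12 arrays alone. KO testes came from NSun2-/- mice of the F1 generation of CBA and C57BL/6J, aged 49 days, and WT testes came from NSun2 wild-type mice of the same cross and age. Knock-out mice existed as 2 lines, one derived from the gene-trap embryonic stem cell line D014D11 and one carrying the allele Nsun2tm1a(EUCOMM)Wtsi. The labels do not say which line an array came from, nor whether each array is a separate animal, so the p-values measure the spread between these samples, part of which may be technical. Within each genotype the replicates carry the letters A to F.

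NSun2 adds a methyl group to cytosine (at carbon 5) in RNA, and transfer RNA is among its substrates. In the adult mouse testis, stem cells divide into spermatogonia, which become spermatocytes, pass through meiosis and leave it as round spermatids, and these elongate into sperm with a flagellum, an acrosome and tightly packed DNA. Sertoli cells nurse the germ cells inside the tubules, and Leydig cells, macrophages and vessels lie between the tubules. The 49-day comparison asks which transcripts differ without NSun2 once the tissue holds all of these stages. Total RNA of whole testis was read on Illumina beadchips, and levels are given as background-corrected, quantile-normalized log2 intensity, on which a difference of 1 is a doubling of the signal. The detection limit of each array came from its dim control rows, and a probe is called above background where fewer than 1% of those rows were brighter than it.

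Nsun2 itself is represented by 1 tested probe and was lower in KO testes. Its level had a lowest value of 5.16, a median of 5.49 and a highest value of 6.09 on the KO arrays, against 5.82, 6.77 and 6.99 on the WT arrays. The groups overlapped, because the WT array of replicate B had a lower level than the KO array of replicate C, while the other WT arrays lay above every KO array. KO minus WT was -1.13 (log2, SE 0.22, limma adjusted p = 0.00150). The probe was above background on 0 of 6 KO arrays and 3 of 6 WT arrays. Because no KO array measured it above background, the fold is a bound, at least 1.17-fold lower in KO. Where the probe lies with respect to the cassettes is not given in the sources used here, and the genotype labels are checked by it only in part.

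The difference between the genotypes was broad. Of 12201 tested genes, 4933 (40.4%) were higher in KO testes and 3155 (25.9%) were lower, together 66.3% of the genes, at a limma adjusted p under 0.05. By probe, 8104 of 22639 (35.8%) were higher and 6077 (26.8%) lower, together 62.6%. Rises were more numerous and falls were larger. Among genes that rose, 2799 (56.7%) rose by at least 1 on the log2 scale, 89 (1.8%) by at least 2 and 4 by at least 3, whereas among genes that fell the counts were 2126 (67.4%), 836 (26.5%) and 156. The median rise was 1.08 and the median fall -1.38. All 6 KO arrays lay above all 6 WT arrays for 2888 genes (23.7% of those tested), and all 6 lay below for 1972 genes (16.2%). A 95% confidence interval that stayed within 0.5 of 0 on the log2 scale was obtained for 922 genes (7.56%). In whole tissue, fewer cells of a type and less RNA per cell cannot be told apart, and a rise can be relative, since each array is scaled to the others. The balance of directions turned with the scaling: quantile normalization put 61% of the called genes higher in KO, and cyclic loess put 48.8% there (3897 higher, 4084 lower). Sizes also depend on the background correction: without it 68 of the 179 genes named here that passed had a change smaller by over 1.5 times on the log2 scale, with a median ratio of 0.75 over the 179. Cyclic loess placed the median change of all tested genes at 0.01, against 0.25 after quantile normalization, and gene families below are therefore also read against that median.

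**Figure D1:**
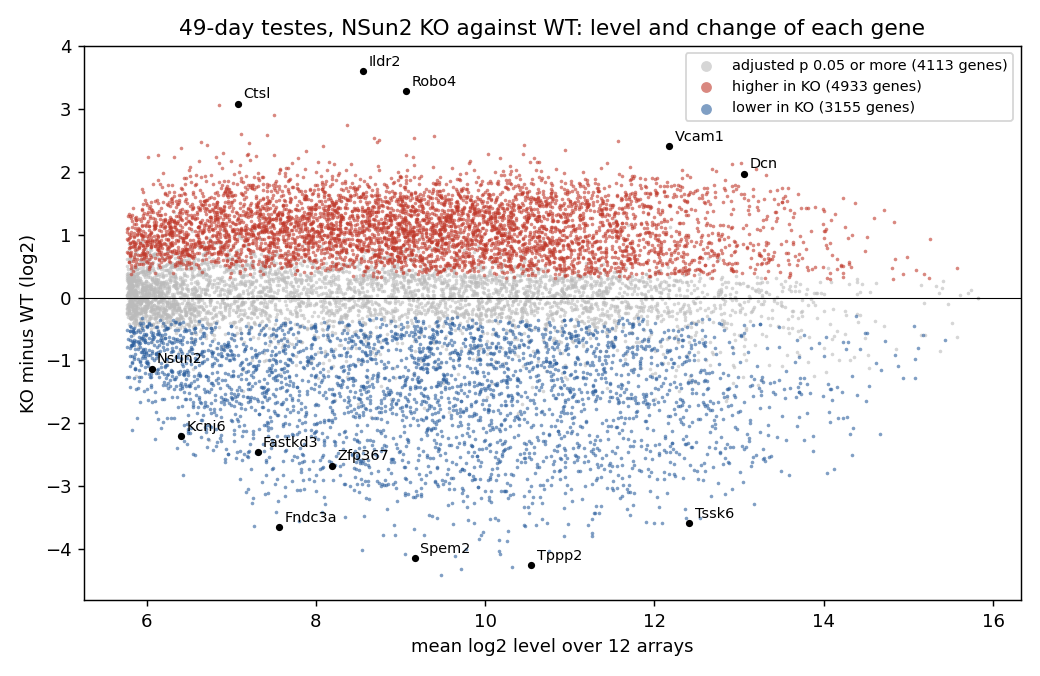
Each point is 1 of 12201 tested genes, with its mean log2 level over the 12 arrays on the horizontal axis and KO minus WT on the vertical log2 axis. Red points are the 4933 genes higher in KO, blue points the 3155 lower in KO, and grey points did not pass. The falls reach below -4, at Tppp2 and Spem2, while the rises stay below 4, with Ildr2 at the top.

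Promoter sequences are shown for the genes with the largest falls and rises, because the promoters of the strongly lower genes differed in base composition from those of the rest. The windows run from 250 bases before to 50 after the start of the gene and come from the RefSeq table of build GRCm38.p6, which held an entry for 9860 of the 12201 tested genes (80.8%). Letters run 5′ to 3′ on the gene's strand, and capitals mark each CG dinucleotide. The first 4 belong to the largest falls that have an entry and the next 4 to the largest rises.
Tppp2, promoter at chr14:51918511-51918810 on the plus strand: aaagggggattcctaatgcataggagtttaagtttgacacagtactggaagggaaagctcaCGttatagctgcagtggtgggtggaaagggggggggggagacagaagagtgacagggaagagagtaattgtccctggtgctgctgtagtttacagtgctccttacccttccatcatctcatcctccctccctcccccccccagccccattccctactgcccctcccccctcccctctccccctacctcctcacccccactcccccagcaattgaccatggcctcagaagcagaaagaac
Spem2, promoter at chr11:69818414-69818713 on the minus strand: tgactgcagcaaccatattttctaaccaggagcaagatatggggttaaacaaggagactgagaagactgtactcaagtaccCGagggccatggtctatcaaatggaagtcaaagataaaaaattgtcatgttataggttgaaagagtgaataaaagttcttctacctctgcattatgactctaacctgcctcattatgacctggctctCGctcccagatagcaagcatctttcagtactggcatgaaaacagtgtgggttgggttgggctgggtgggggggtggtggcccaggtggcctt
Cyp2a12, promoter at chr7:27028840-27029139 on the plus strand: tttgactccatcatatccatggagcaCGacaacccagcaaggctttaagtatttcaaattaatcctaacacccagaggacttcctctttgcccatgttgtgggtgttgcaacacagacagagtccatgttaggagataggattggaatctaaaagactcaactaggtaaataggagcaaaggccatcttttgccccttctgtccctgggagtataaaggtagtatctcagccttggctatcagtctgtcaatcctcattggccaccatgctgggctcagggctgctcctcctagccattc
Bpifa3, promoter at chr2:154130086-154130385 on the plus strand: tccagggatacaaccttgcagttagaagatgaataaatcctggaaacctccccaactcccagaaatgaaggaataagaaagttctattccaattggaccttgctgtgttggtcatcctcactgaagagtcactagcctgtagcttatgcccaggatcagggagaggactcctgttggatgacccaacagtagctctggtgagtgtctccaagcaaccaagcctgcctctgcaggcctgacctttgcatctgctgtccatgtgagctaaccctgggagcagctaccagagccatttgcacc
Ildr2, promoter at chr1:166253889-166254188 on the plus strand: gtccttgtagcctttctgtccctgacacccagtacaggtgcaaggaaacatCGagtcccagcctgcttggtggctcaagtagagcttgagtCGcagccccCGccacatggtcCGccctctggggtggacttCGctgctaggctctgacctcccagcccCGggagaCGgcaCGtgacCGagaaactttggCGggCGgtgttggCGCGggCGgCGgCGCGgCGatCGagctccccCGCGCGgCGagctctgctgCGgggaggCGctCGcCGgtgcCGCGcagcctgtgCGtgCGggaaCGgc
Robo4, promoter at chr9:37401722-37402021 on the plus strand: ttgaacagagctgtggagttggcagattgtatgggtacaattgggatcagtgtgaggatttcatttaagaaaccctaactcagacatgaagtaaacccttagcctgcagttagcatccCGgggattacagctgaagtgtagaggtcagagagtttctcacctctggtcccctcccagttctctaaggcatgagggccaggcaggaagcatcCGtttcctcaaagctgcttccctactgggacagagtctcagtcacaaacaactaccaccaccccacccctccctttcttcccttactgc
Ctsl, promoter at chr13:64370471-64370770 on the minus strand: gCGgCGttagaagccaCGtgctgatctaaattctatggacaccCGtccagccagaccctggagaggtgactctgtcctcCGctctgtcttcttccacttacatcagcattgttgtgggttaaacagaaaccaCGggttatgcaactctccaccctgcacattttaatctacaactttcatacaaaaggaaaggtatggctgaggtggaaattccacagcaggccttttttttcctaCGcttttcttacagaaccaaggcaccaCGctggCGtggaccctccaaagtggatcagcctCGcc
Tnfrsf12a, promoter at chr17:23677400-23677699 on the minus strand: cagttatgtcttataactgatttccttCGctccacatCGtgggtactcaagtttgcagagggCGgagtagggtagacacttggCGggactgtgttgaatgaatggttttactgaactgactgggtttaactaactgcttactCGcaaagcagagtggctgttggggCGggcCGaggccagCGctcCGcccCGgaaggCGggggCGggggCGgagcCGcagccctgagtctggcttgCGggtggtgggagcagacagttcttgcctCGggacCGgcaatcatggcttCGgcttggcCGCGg

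The 4 promoters of lower genes held 1 (Tppp2), 2 (Spem2), 1 (Cyp2a12) and 0 (Bpifa3) CG dinucleotides, and the 4 promoters of higher genes held 32 (Ildr2), 2 (Robo4), 10 (Ctsl) and 20 (Tnfrsf12a). Robo4 was thus as poor in CG as the lower genes. The same measure over all matched genes is the observed number of CG dinucleotides over the number expected from the C and G content. Its median was 0.27 in the 662 matched genes that fell by 2 or more on the log2 scale and 0.63 in all 2551 matched genes that fell. Genes that rose had a median of 0.75 (4020 genes), genes that did not pass 0.76 (3289 genes), and all tested genes 0.73. Median GC content was 52.3% in the genes that fell by 2 or more, 57.3% in all that fell, 61.3% in those that rose and 60% in all tested genes. The X-box half-site GTTGCCA, searched on both strands, was present in 7.85% of promoters that fell by 2 or more, 6.78% of all that fell, 3.01% of those that rose and 4.5% of all tested. The cyclic AMP response element TGACGTCA was in 2.27%, 2.94%, 3.13% and 3.09% of the same classes. These are descriptions of letters in fixed windows, not of bound factors.

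The 14 largest falls of named genes ran from -4.26 to -3.77 on the log2 scale, and the groups overlapped in none of them. Tppp2, of the tubulin polymerization promoting protein family, had levels of 5.61, 7.82 and 11.99 on the KO arrays (lowest, median, highest), against 12.48, 12.64 and 12.99 on the WT arrays. Every KO array lay below every WT array, and the KO arrays were spread over more than 6 log2 units. Its difference was -4.26 (SE 0.91, limma adjusted p = 0.00213). Spem2, named for spermatid maturation, reached 9.77 at most in KO and 11.12 at least in WT, and differed by -4.15 (SE 0.65, limma adjusted p = 6.06e-04). Car2, a carbonic anhydrase, had medians of 6.95 in KO and 11.76 in WT and differed by -4.11 (SE 0.62). Cyp2a12, a cytochrome P450, differed by -4.09 (SE 0.62), and Bpifa3, of the BPI fold family, by -4.08 (SE 0.73). The next in order were Spata32 (-4.03), Noxred1 (-4.02), Fam71f1 (-3.87), Spatc1, which encodes the sperm centrosome protein speriolin (-3.86), and Trp53tg5 (-3.80). Wbscr25 (-3.79), Itpripl1 (-3.78), the ubiquitin-like gene Ubl4b (-3.77) and Ccdc187 (-3.77) closed the 14 largest falls. The second probe of Itpripl1 did not give the same call.

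Rises were led by a receptor-like gene, Ildr2, which encodes an immunoglobulin-domain membrane protein. Its levels were 8.35, 10.40 and 12.37 on the KO arrays, against 6.51, 6.80 and 6.95 on the WT arrays, and the difference was 3.61 (SE 0.52, limma adjusted p = 4.51e-04). The endothelial receptor gene Robo4 had medians of 10.70 in KO and 7.47 in WT and rose by 3.28 (SE 0.43), although its second probe did not give the same call. Ctsl, which encodes the lysosomal protease cathepsin L, differed by 3.09 (SE 0.35, limma adjusted p = 1.14e-04). Without background correction its change was 1.39. Its KO arrays lay between 7.81 and 9.61, and its WT arrays between 5.01 and 6.83, with WT replicate B the highest of them. Some of the large rises were in genes that no WT array measured above background. Tnfrsf12a, the receptor of the cytokine TWEAK, was at least 3.45-fold higher in KO (median 8.23 in KO and 5.23 in WT), and Igfbp3, a carrier of insulin-like growth factors, was at least 3.53-fold higher (median 8.22 in KO and 5.85 in WT). Rab7b, a small GTPase of late endosomes, rose by 2.91, the kallikrein gene Klk1b22 by 2.75 and Bpifb4 by 2.59. Hsd17b3, the enzyme that forms testosterone from androstenedione, rose by 2.57, the creatine transporter gene Slc6a8 by 2.55, and the adaptor gene Trip6 by 2.54. Timp1, an inhibitor of metalloproteinases (2.51), the protease inhibitor gene Wfdc1 (2.50) and Masp1, a protease of the lectin pathway of complement (2.48), complete the list. Among these 14 rises, Bpifb4 was the one whose groups overlapped.

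**Figure D2:**
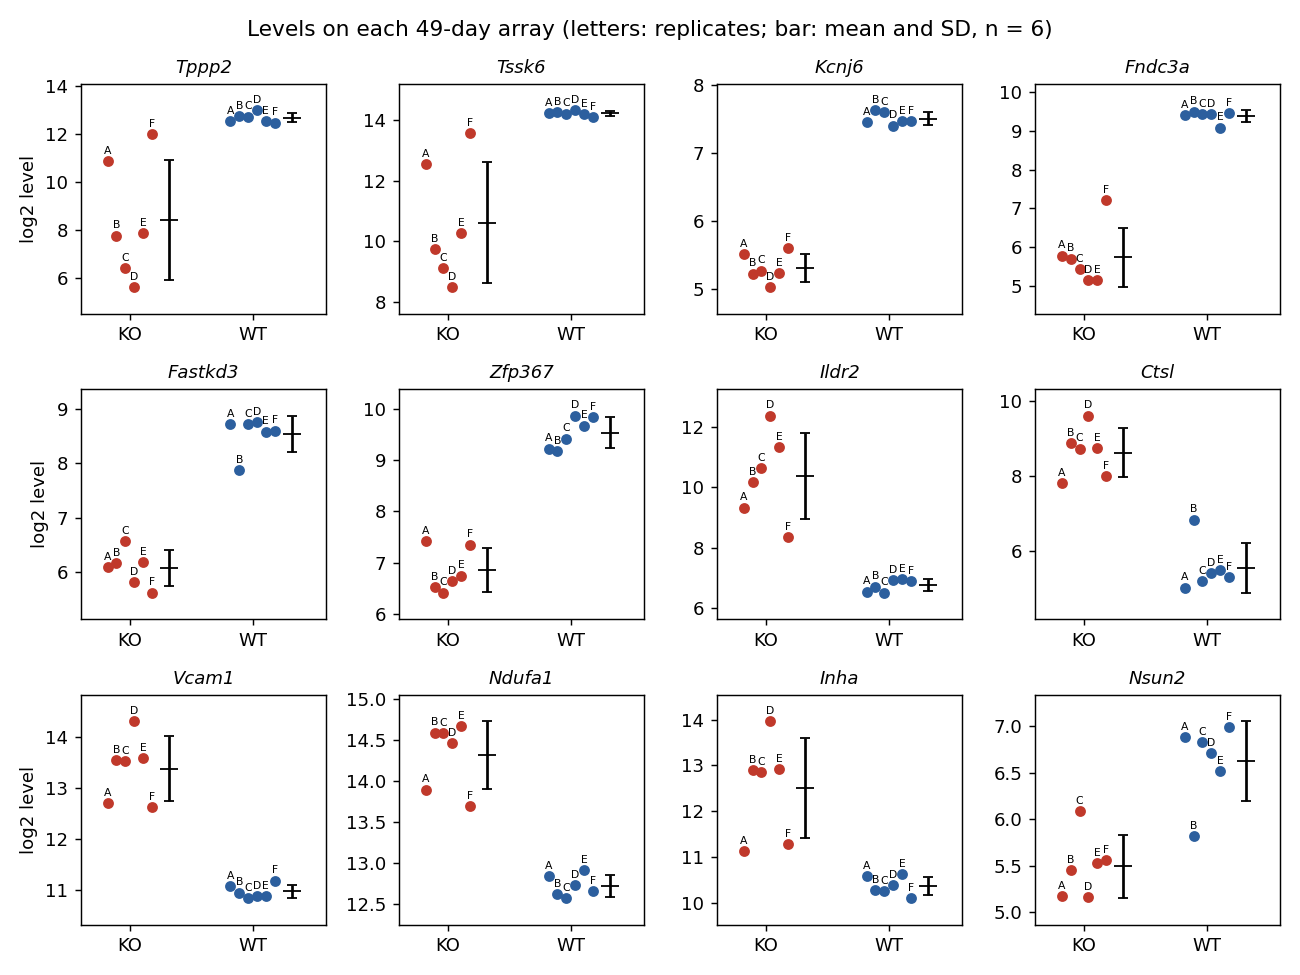
Log2 levels of 12 genes on each 49-day array, KO arrays in red at the left of each panel and WT arrays in blue at the right, with letters for the replicates and bars for the mean and SD (n = 6). In Tppp2 and Tssk6 the KO arrays A and F lie near the WT arrays, whereas in Kcnj6 and Fastkd3 all KO arrays lie together at the bottom.

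A further set of falls was chosen by the largest absolute moderated t rather than the largest change. That rank itself favours genes with little spread within the groups. Kcnj6, a subunit of a G protein-gated potassium channel, had levels of 5.03, 5.25 and 5.60 in KO, against 7.41, 7.47 and 7.64 in WT. It was above background on 0 of 6 KO and 6 of 6 WT arrays, which makes it at least 2.16-fold lower in KO (limma adjusted p = 2.87e-06). Tm4sf4, a tetraspan membrane protein, had KO values from 5.10 to 5.54 and WT values from 7.29 to 7.74, at least 2.12-fold lower (limma adjusted p = 2.87e-06). Strn, which encodes the phosphatase scaffold striatin, was at least 2.28-fold lower, and its second probe did not give the same call. Fndc3a, a fibronectin-domain gene needed for spermatid adhesion in mice, differed by -3.66 (SE 0.30, limma adjusted p = 2.52e-05), with 5 KO arrays between 5.14 and 5.78 and replicate F at 7.21, and by -1.85 without background correction. Hs3st3b1, a heparan sulphate sulphotransferase gene, differed by -2.77 (SE 0.23) and Tmem239 by -2.88 (SE 0.24), and the second probe of Hs3st3b1 did not give the same call. Kcnj6, Tm4sf4 and Strn lay below the background limit on every KO array, where the spread between arrays is bounded by the background itself.

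Fastkd3 and Zfp367 belong to the same class and lie on chromosome 13 with Nsun2. Fastkd3, a protein of mitochondrial RNA metabolism, is the gene 6 places from Nsun2 in the RefSeq order. It had levels of 5.63, 6.13 and 6.57 in KO, against 7.88, 8.66 and 8.75 in WT, and differed by -2.46 (SE 0.20, limma adjusted p = 2.18e-05). Zfp367, a zinc finger gene 67 places away, differed by -2.67 (SE 0.22, limma adjusted p = 2.18e-05), but 2 of its 2 other probes did not give the same call. Ctsl, 63 places from Nsun2, and Hsd17b3, 69 places from it, are among the largest rises. At 15 days, in a fit to all 24 arrays, KO minus WT was -2.71 for Fastkd3 (limma adjusted p = 7.88e-10), -2.38 for Zfp367 (3.37e-07) and 2.23 for Ctsl (1.07e-04). Hsd17b3 did not pass at that age (0.59, limma adjusted p = 0.320). The falls of the same class elsewhere in the genome, Kcnj6, Tm4sf4, Fndc3a, Strn, Hs3st3b1 and Tmem239, were above background on no 15-day array of either genotype, so no difference is given for them at that age. The strain origin of the region around Nsun2 in either genotype is not given by the labels, and its part in these values was not tested.

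The rises with the next largest moderated t had SDs of 0.34 (Nipa1) to 0.63 (Vcam1) between KO arrays, where the median over all genes that rose was 0.63. Vcam1, a cell adhesion molecule, had levels of 12.62, 13.54 and 14.31 in KO, against 10.84, 10.91 and 11.18 in WT, a rise of 2.41 (SE 0.25, limma adjusted p = 8.49e-05). Cst12, a cystatin gene, rose by 1.71 (SE 0.20) and Ndufa1, a subunit of respiratory complex I, by 1.59 (SE 0.19). Cpe, which encodes carboxypeptidase E, rose by 2.13 (SE 0.25), and Dcn, the matrix proteoglycan decorin, by 1.97 (SE 0.25). Nipa1, a magnesium transporter gene, rose by 1.35 (SE 0.17). Crygs, a lens crystallin gene, and Rrp8, a ribosomal RNA processing gene, were above background on no WT array, and their bounds were at least 1.94-fold higher for Crygs and at least 1.22-fold higher for Rrp8. In all of these genes each KO array lay above each WT array.

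Among the brightest 10% of genes 37.5% rose and 30.2% fell. Leaving out genes already named above, such as Vcam1, the 8 largest changes in each direction were as follows. The protease inhibitor genes Wfdc10 (2.14) and Serpina5, the protein C inhibitor (1.95), rose with the kallikrein genes Klk1b27 (2.05), Klk1b21 (2.05) and Klk1b24 (2.03), of which Klk1b27 and Klk1b24 had overlapping groups. Aldh1a1, a retinaldehyde dehydrogenase, rose by 2.02 (KO 12.60, 13.87 and 14.56, WT 11.16, 11.74 and 12.02), and Maged2 (1.95) and Htatsf1 (1.92) followed. The kallikrein genes are near-identical copies of one another, so signal of one can reach the probe of another. On the other side, Tssk6, a kinase of late spermatids, lay between 8.5 and 13.55 on the KO arrays, against 14.08 to 14.31 on the WT arrays, and differed by -3.59 (SE 0.72, limma adjusted p = 0.00168). Oxct2a and Oxct2b, testis forms of an enzyme that uses ketone bodies and close copies of each other, differed by -3.58 and -3.36. The cystatin-like gene Cstl1 (-3.33), Tex35 (-3.10), Fam71f2 (-3.04), Znrf4 (-2.93) and Fam71e1 (-2.90) fell as well. All 8 of these bright falls stood at 13.50 or more on every WT array, and no KO array reached its lowest WT value.

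The 6 KO arrays differed from one another far more than the WT arrays did. For genes that rose, the median SD was 0.63 between KO arrays and 0.18 between WT arrays, and for genes that fell it was 0.80 and 0.16. The median deviation from the WT mean over the genes that fell was -2.49 on KO replicate D, -1.66 on E, -1.65 on C, -1.31 on B, -0.60 on A and -0.43 on F, and the WT arrays lay between -0.04 and 0.06. Over the genes that rose, the order of the KO arrays was D (1.87), C (1.38), E (1.35), B (1.06), A (0.51) and F (0.38), against -0.10 to 0.08 on the WT arrays. Replicate D was the KO array farthest from WT for 72.6% of the genes that fell and 72.9% of those that rose, and replicate F was the nearest for 67% and 64.3%. Principal component 1 carried 82.9% of the variance between arrays. KO arrays ran on it from -221.7 (D) to 34.6 (F), and WT arrays from 77.3 to 94.3. Both genotypes lay on each of the 4 slides of the arrays. Within the slides the median change of the genes that fell was -1.29, -1.66, -1.13 and -1.57. The median change of the genes that rose was 1.03, 1.37, 0.96 and 1.13. On all 4 slides 98.9% of the falls and 98.5% of the rises had the same sign, against 38.9% of the genes that did not pass. The falls and rises were called on the same arrays, so these medians and shares follow in part from that choice. With the slide as a fixed block 7203 genes passed (4519 higher, 2684 lower). Of the 179 genes named here that passed, all 179 had the same sign on the 4 slides, and the groups did not overlap for 160 of them and overlapped for 19. Most of these genes were chosen by the size or the moderated t of their change on the same arrays, so both counts follow in part from that choice. Over all tested genes, KO lay wholly above WT for 23.7% and wholly below for 16.2%.

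**Figure D3:**
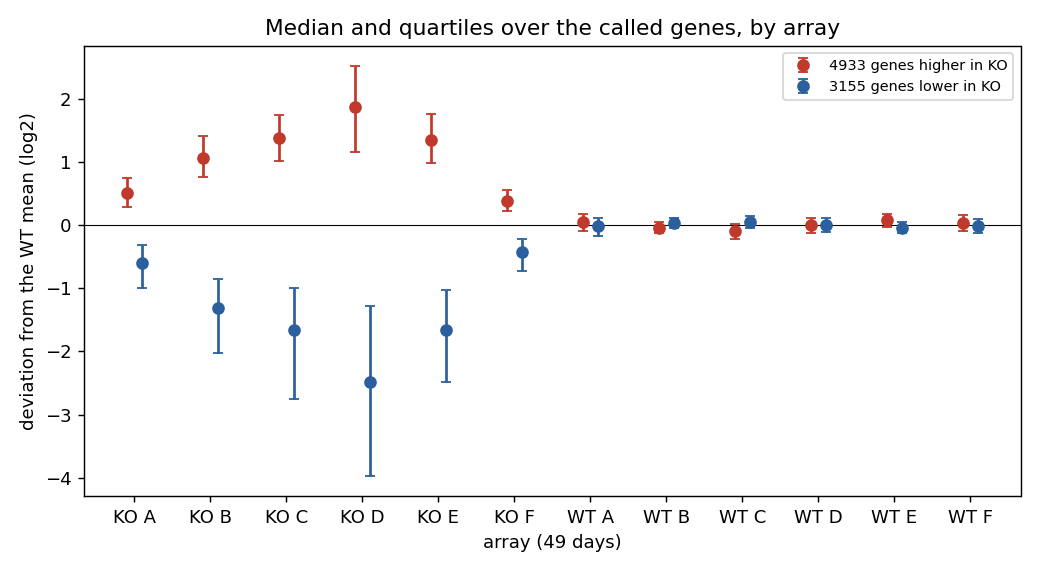
For each of the 12 arrays, KO at the left and WT at the right, points give the median deviation from the WT mean (log2) over the 4933 genes higher in KO (red) and the 3155 lower in KO (blue), and bars the quartiles over genes. Replicate D is farthest from the WT arrays in both directions and replicates A and F are nearest.

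Falls were more often below the background in juvenile WT testis than rises were. Of the 3155 falls, 1113 (35.3%) did not exceed the background on any of the 6 WT arrays of 15 days. Spermatids have not yet formed at that age. The same held for 42 (0.851%) of the 4933 rises and 438 (10.6%) of the 4113 genes that did not pass. Genes entered the test by their mean level at 49 days. Above background on all 6 WT arrays of 15 days were 48.6% of the falls, 95.2% of the rises and 74.2% of the genes that did not pass. Among the 3155 falls, 40 genes were above background on all 6 WT and no KO array of 49 days. Among the 4933 rises, 114 genes were above background on all 6 KO and no WT array. Of the 4113 genes that did not pass, the same held for 0 and 1 genes. The calls came from the same arrays, so these counts follow in part from them.

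Gene families named by their symbols were counted next, beginning with structures of the sperm tail, and each count is read beside the 40.4% of all genes that rose and the 25.9% that fell. Of 24 tested genes for cilia and flagella associated proteins, 19 fell, none rose and 5 did not pass, with a median change of -1.55. Cfap221, a central pair protein of motile cilia, differed by -2.53 (SE 0.64) and Cfap97d1, a gene of the sperm flagellum, by -2.50 (SE 0.66). The 3 tektins, filament proteins inside the doublet microtubules, all fell, Tekt5 by 2.70 and Tekt3 by 1.72 (adjusted p = 0.0209, and 0.0554 with the slide as a fixed block). Coiled-coil domain genes, a large group with many flagellar members, fell in 57 of 101 cases and rose in 20 (median -1.05). Ccdc169 differed by -3.47, while Ccdc85b rose by 1.76 and Ccdc28b by 1.65. Leucine-rich repeat genes fell in 16 of 37 cases and rose in 6. With no filter their median minus that of all genes was -0.12, against -0.54 among the tested genes. Lrrc74a (-3.48) and Lrrc8b (-3.43) fell, and Lrrc75b (1.84) and Lrrc8d (1.46), another subunit type of the volume-regulated anion channel to which Lrrc8b belongs, rose. Kinesins were divided, with 8 of 32 lower and 7 higher. Kif17, a motor of testis and neurons, differed by -2.53 and the kinesin-associated gene Kifap3 by -2.47, although 2 of 2 other probes of Kifap3 did not give the same call, and Kif1c rose by 1.43.

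Several families held a member that fell beside a related member that rose. Tubulins fell in 6 of 16 cases and rose in 3. Tubb5, a widely expressed beta tubulin, had levels of 12.43, 13.87 and 14.54 in KO, against 11.79, 11.92 and 12.05 in WT, a rise of 1.61 (SE 0.33). Tuba8, an alpha tubulin, had 6.91, 9.33 and 12.18 in KO, against 12.57, 12.67 and 12.76 in WT, and differed by -3.00 (SE 0.71; 1 of 2 other probes did not give the same call). In glycolysis and glycerol kinases, 10 of 22 fell and 6 rose. Gapdh, the general glyceraldehyde phosphate dehydrogenase, rose by 1.68 (SE 0.31), and Gapdhs, its sperm form, differed by -2.52 (SE 0.55). The vacuolar proton pump showed the same with the forms of its E subunit, as Atp6v1e1 rose by 1.18 (SE 0.23) and the testis form Atp6v1e2 differed by -2.69 (SE 0.55). In the chaperonin CCT, which folds actin and tubulin, the general subunit gene Cct8 rose by 0.76 (SE 0.17; 0.37 with an adjusted p of 0.0772 after scale normalization) and Cct8l1 differed by -3.33 (SE 0.51). Of the protein kinase A anchoring proteins, 8 of 15 fell and 7 rose, so that all 15 passed. Akap3, of the fibrous sheath of the sperm tail, differed by -2.67 and Akap1, which anchors the kinase at mitochondria, by -2.67, and Akap17b rose by 1.55. Whether cells or transcripts per cell differ was not tested for any of these pairs.

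Of the smaller or evenly divided families, axonemal dynein heavy chains fell in 3 of 6 cases with no rise. Ankyrin repeat proteins fell in 16 and rose in 12 of 39 cases, protein phosphatase 1 regulators fell in 10 and rose in 10 of 30, adenylate kinases fell in 3 and rose in 2 of 6, and SPINK protease inhibitors rose in 2 of 4 with no fall. Proteases of the Prss family fell in 14 of 23 cases and rose in 2, with a median of -1.5. Prss55, a testis serine protease needed for sperm migration in mice, differed by -3.31 and Prss23 by -3.05. Prss35, a protease-like gene, rose by 2.36 (KO 10.30, 12.32 and 13.56, WT 9.60, 9.70 and 10.14). All 4 lysozyme-like genes fell, among them Lyzl4 (-2.04) and Spaca3 (-2.0), both acrosomal. Potassium channels and related cation channels fell in 23 of 56 cases and rose in 10. Of 119 such genes on the array 56 were tested. With no filter the median of the channels minus that of all genes was -0.09, against -0.67 among the tested genes. Catsper1, the pore subunit of the sperm calcium channel, differed by -3.07 (SE 0.64). Trpm7, a channel with a kinase domain, rose by 1.73 (SE 0.32). Kcnh3 was above background on 4 KO arrays and no WT array and was at least 1.59-fold higher.

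Among families of protein turnover, F-box proteins rose in 22 and fell in 10 of 49 cases and ubiquitin-conjugating enzymes rose in 11 and fell in 6 of 29. RING finger genes rose in 21 and fell in 20 of 61 cases, TRIM genes rose in 14 and fell in 13 of 39, and ubiquitin-specific peptidases rose in 14 and fell in 11 of 42. After quantile normalization the medians of the RING, ubiquitin-specific, ubiquitin-conjugating and Kelch-like families were above 0 (0.06, 0.19, 0.20 and 0.24). Each changed sign under cyclic loess (-0.18, -0.15, -0.06 and -0.01 in the same order), so no direction is given for these families. Rnf133, a ubiquitin ligase of spermatids, differed by -2.83, and Rnf130 rose by 1.69. Trim42 (-3.15) and Trim17 (-2.98) fell and Trim47 (1.92) rose. Usp49, which removes ubiquitin from histone H2B, differed by -2.82, and Usp22, of the SAGA complex, rose by 1.73. Kelch-like proteins rose in 10 and fell in 8 of 25 cases. Klhl10, a Kelch-like adaptor required for male fertility in mice, differed by -2.43 and Klhl23 rose by 1.76.

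In genes of RNA processing and translation, rises outnumbered falls in the 5 families counted, though not always beyond the 40.4% of all genes. Splicing factors of the SR and SF3 groups rose in 11 of 18 cases and none fell, and heterogeneous nuclear ribonucleoproteins rose in 9 of 18 with 1 fall. Srsf1 rose by 1.12 (SE 0.22; 0.70 after scale normalization) and Hnrnpdl by 1.47 (SE 0.22). Mitochondrial ribosomal proteins rose in 35 of 71 cases and fell in 7 (median 0.46), with Mrps24 at 1.42 (SE 0.22) and Mrpl39 at -1.01 (SE 0.27). Among 43 translation initiation factor genes 21 rose and 5 fell. Eif2s3x, the X-linked gene of the gamma subunit of initiation factor eIF2, rose by 1.83, and Eif2s3x-ps1 differed by -1.42. By its name Eif2s3x-ps1 is a copy of Eif2s3x, so their probes may share signal. DEAD-box helicases rose in 13 of 40 cases (32.5%) and fell in 5, and their median minus that of all genes was -0.05. For the other 4 families the same difference was 0.19 to 0.26, and 0.11 to 0.27 after cyclic loess. After scale normalization it was 0.12 for the splicing factors, 0.04 for the mitochondrial ribosomal proteins, -0.003 for the initiation factors and -0.09 for the ribonucleoproteins, so no direction against all genes is given for the initiation factors or the ribonucleoproteins.

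Among transport and membrane genes, Rab GTPases, tetraspanins and annexins held larger shares of rises than the 40.4% of all tested genes. Rab GTPases, which direct vesicle traffic, were counted by symbol and rose in 35 of 57 cases (61.4%) and fell in 5, with a median of 0.76. Rab31 rose by 1.75 (SE 0.31), while Rab3il1, an exchange factor of Rab proteins that the symbol brings into the count, differed by -2.31. Tetraspanins rose in 12 of 16 cases with 1 fall (median 1.14), Tspan8 by 1.86. Tspan6 was the fall, at -2.73, and its second probe did not give the same call. Annexins, which bind membranes with calcium, rose in 7 of 9 cases. Anxa4 rose by 1.62 and Anxa6 by 1.59, and Anxa3 fell by 0.78. Solute carriers rose in 116 of 234 cases and fell in 52 (median 0.55). Slc4a3, an anion exchanger, rose by 2.18 (SE 0.42) and Slc35g3 differed by -2.91 (SE 0.48). Below or near the share of all genes were ABC transporters (13 of 33 higher, 10 lower) and integrins (6 of 17 higher, 4 lower). Genes with claudin symbols, Cldnd2 among them, were divided, 6 of 17 higher and 5 lower. Cldn11, the claudin of Sertoli cell junctions, had levels of 14.39, 15.26 and 15.75 in KO, against 13.30, 13.68 and 13.91 in WT, a rise of 1.5 (SE 0.24, limma adjusted p = 6.22e-04), and Cldnd2 differed by -2.70.

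Enzymes of detoxification and of steroid or retinoid metabolism were counted beside the same shares of all genes, 40.4% higher and 25.9% lower. Aldehyde dehydrogenases and aldo-keto reductases rose in 16 of 25 cases (64%) and fell in 4 (median 1.01), with Akr1b10 at 1.80. Glutathione transferases rose in 14 of 24 cases (58.3%) and fell in 6 (median 0.85). Gstm6 had levels of 12.44, 13.51 and 14.12 in KO, against 10.97, 11.36 and 11.62 in WT, a rise of 1.91 (SE 0.28, limma adjusted p = 4.32e-04), and Gsta4 rose by 1.87, whereas Gstt4 differed by -2.38 and Gstcd by -2.87 (1 of 3 other probes of Gstcd did not give the same call). Cytochromes P450 rose in 13 of 29 cases (44.8%) and fell in 9 (31%), near the shares of all genes. Cyp27a1, a sterol hydroxylase, rose by 1.83 (SE 0.36), and Cyp1b1 rose by 1.78 (SE 0.42).

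Immune and protease families differed in their share of rises, from 76.7% in interferon-related genes to 39.1% in chemokines and their receptors. Interferon-related genes rose in 23 of 30 cases (76.7%) with 1 fall and a median of 1.13. Of 66 such genes on the array 30 were tested. With no filter their median minus that of all genes was 0.13, against 0.88 among the tested genes. Ifitm2 rose by 1.69 (SE 0.34) and Ifitm3, an antiviral membrane protein, by 1.65 (SE 0.34), whereas Isg20, an exonuclease gene, differed by -2.43 (SE 0.53). Genes of class I and II MHC rose in 12 of 19 cases with 1 fall (median 1.15), with H2-Q5 at 1.87 (SE 0.36). Of 43 MHC genes on the array 19 were tested. With no filter their median minus that of all genes was 0.04, against 0.90 among the tested genes. H2-Aa rose by 1.88 with overlapping groups, and H2-DMb1 fell by 0.64 (-1.01 after cyclic loess). Chemokines and their receptors rose in 9 of 23 cases and fell in 4. The TNF superfamily with its receptors rose in 7 of 16 cases (43.8%) and fell in 2, and its median minus that of all genes was -0.14. Complement components rose in 7 of 10 cases (median 1.20). C2 had levels of 11.61, 12.83 and 14.09 in KO, against 10.82, 10.93 and 11.14 in WT, a rise of 1.88 (SE 0.32), and Serping1, the inhibitor of C1, rose by 1.73 (SE 0.36). Serpins rose in 10 of 15 cases with 1 fall, Serpinb6c, at -1.69. Metalloproteinases and their inhibitors rose in 12 of 26 cases (46.2%) and fell in 3. Mmp11 was above background on 5 KO arrays and no WT array and was at least 2.49-fold higher. Timp4, in contrast to Timp1, was above background on no KO array and on 6 of 6 WT arrays, at least 2.04-fold lower in KO (limma adjusted p = 1.00e-04).

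Signalling genes followed, ligands and receptors first. The TGF beta family with its receptors and Smad proteins rose in 26 of 36 cases and fell in 5, with a median of 1.16. Inha, the alpha subunit of the hormone inhibin, had levels of 11.12, 12.88 and 13.97 in KO, against 10.10, 10.33 and 10.62 in WT, a rise of 2.14 (SE 0.41, limma adjusted p = 0.00139). Bmp4 rose by 2.26 (SE 0.52) with overlapping groups. Gdf9 and Bmp8a, ligands of germ cells, differed by -1.44 (SE 0.36) and -1.25 (SE 0.27). WNT pathway genes rose in 12 of 21 cases and fell in 3. The receptor gene Fzd7 rose by 1.98 and the ligand gene Wnt5a by 1.72, and the ligand gene Wnt3a differed by -2.21 and the transcription factor gene Lef1 by -1.75. In the Notch pathway the receptor gene Notch1 rose by 2.14 (SE 0.42) and Notch4 fell by 1.00 (SE 0.15). G protein-coupled receptors rose in 16 and fell in 6 of 36 cases. Fgfr2, a receptor of fibroblast growth factors, rose by 1.87 (SE 0.39). Immediate early genes rose in 7 of 14 cases and fell in 2. Fosl2 rose by 2.05 (SE 0.32) and Egr1 by 1.48 (SE 0.32), against Nr4a3 at -2.09 (SE 0.24) and Jund at -1.71 (SE 0.34).

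Transcription factor families were divided by member. Nuclear receptors rose in 12 and fell in 9 of 28 cases. Esr1, the oestrogen receptor alpha, was above background on 6 of 6 KO and 0 of 6 WT arrays and was at least 2.37-fold higher (limma adjusted p = 0.00175). Rxra, the retinoid X receptor alpha, had levels of 6.00, 7.44 and 9.87 in KO, against 10.51, 10.69 and 10.98 in WT, a difference of -2.89 (SE 0.50). SOX factors rose in 6 and fell in 5 of 14 cases. Sox9, which specifies Sertoli cells, rose by 1.78 (SE 0.32) and Sox4 by 1.6 (SE 0.28). Sox30, a regulator of the round spermatid programme, differed by -2.30 (SE 0.31), with KO values from 4.94 to 6.75 and WT values from 7.77 to 8.24, and Sox17 differed by -1.80 (SE 0.27). Kruppel-like factors were even, with 6 of 13 higher and 6 lower, among them Klf6 (1.53), Klf13 (1.43), Klf17 (-2.44) and Klf12 (-1.90). Of 5 tested reproductive homeobox genes, Rhox5 (1.77) and Rhox8 (1.62), both of Sertoli cells, rose, and Rhox11 differed by -1.45 with overlapping groups.

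**Figure D4:**
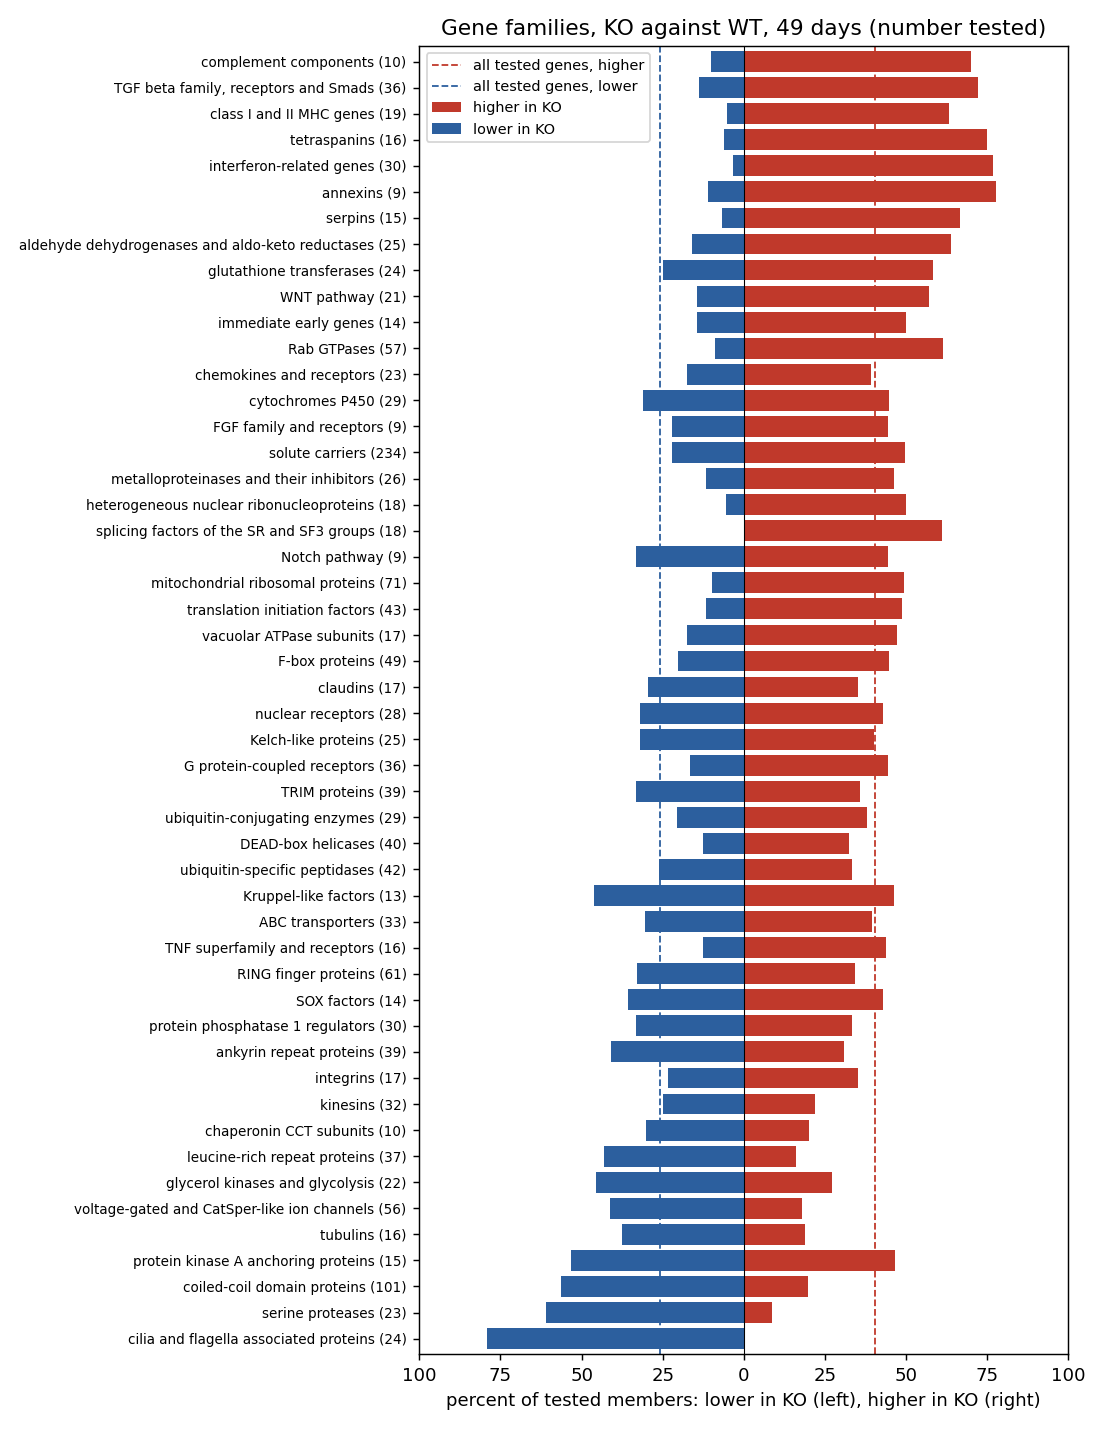
Share of tested members that were lower in KO (blue, to the left) and higher in KO (red, to the right), in percent, with the number tested in brackets, for the described families with 9 or more tested members, ordered by median change. Dashed lines mark the shares over all tested genes (25.9% lower and 40.4% higher). Cilia and flagella associated proteins (median -1.55) lie at the bottom and complement components (median 1.20) at the top.

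Genes of the X chromosome were higher more often than genes of the autosomes. As a description without a test, of 447 tested X-linked genes 62.4% rose and 15.9% fell, with a median change of 1.03, against 39.7% and 26.2% of 11695 autosomal genes, with a median of 0.23. The share of rises on the single autosomes is shown in the plot by chromosome, where none comes near that of the X. X-linked genes that rose include Slc6a8 and Timp1 above, Gprasp1 (2.08; 2 of 3 other probes did not give the same call), Armcx1 (2.06) and the RNA helicase gene Ddx3x (2.0). On the X chromosome H2ap and H2al3, histone variants of spermatids, differed by -2.77 (SE 0.71) and -2.76 (SE 0.79), with overlapping groups in both. Samt3 (-2.96), Wdr13 (-2.96) and Sh3kbp1 (-2.90; 2 of 3 other probes did not give the same call) fell too. Of 16 tested genes on the Y chromosome 2 rose and 4 fell. Kdm5d, a histone demethylase gene, was at least 1.48-fold higher, and Eif2s3y, which acts in spermatogonia, rose by 0.87 (SE 0.20), against Rbm31y at -1.94 (SE 0.37) and H2al2c at -1.39 (SE 0.32). The X-linked genes Armcx1, H2ap, H2al3, Samt3, Wdr13 and Sh3kbp1 and the Y-linked genes were chosen for mention after their values were seen.

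**Figure D5:**
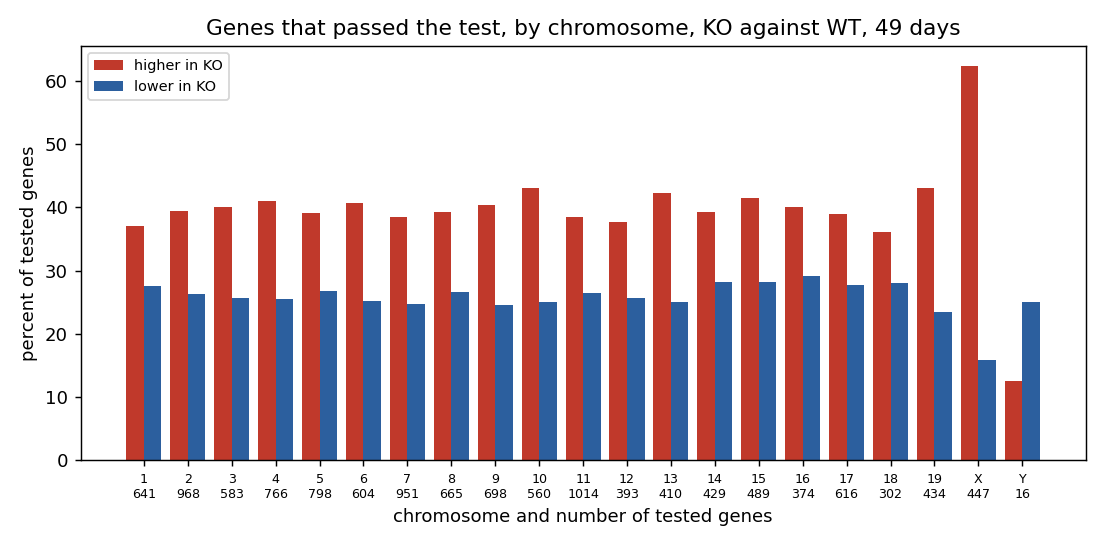
Percent of tested genes that were higher (red) and lower (blue) in KO on each chromosome, with the number of tested genes under each name. The X chromosome stands at 62.4% higher and 15.9% lower.

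Markers of the cell types of the testis were counted as well, beside the 40.4% of all tested genes that rose and the 25.9% that fell. All 16 tested round spermatid markers fell, with a mean list level of 8.47 to 12.58 on the KO arrays and 12.96 to 13.19 on the WT arrays. Of the elongating spermatid markers 15 of 16 fell (9.95 to 14.17 in KO, 14.49 to 14.62 in WT), Prm1 being the one that did not pass (-0.40, limma adjusted p = 0.115; 0.05 after cyclic loess, and -0.64 with an adjusted p of 0.0115 after scale normalization). The WT mean of Prm1 (15.71) lay near the top of the scale, where a difference can be understated. That of Gsg1 (15.76) lay there too, and Gsg1 differed by -2.18. In spermatocytes 5 of 13 (38.5%) fell and none rose (9.16 to 12.44 in KO, 12.28 to 12.46 in WT). In spermatogonia 5 of 10 rose (50%, near the share of all genes) and none fell (7.75 to 9.11 in KO, 7.47 to 7.82 in WT). All 14 tested Sertoli cell markers rose (10.01 to 12.09 in KO, 9.01 to 9.41 in WT). Of 8 Leydig cell markers 7 rose (11.06 to 12.96 in KO, 10.28 to 10.79 in WT), while Insl3, a hormone gene of Leydig cells, stood at 0.16 (limma adjusted p = 0.292; 0.60 with an adjusted p of 0.00985 after cyclic loess, and -0.06 after scale normalization). The means of Insl3 (15.48 in KO and 15.32 in WT) also lay near the top of the scale, where a rise can be understated. Macrophage markers rose in 8 of 10 cases (8.64 to 10.34 in KO, 8.01 to 8.25 in WT), myoid markers in 5 of 7 with 1 fall (10.30 to 11.48 in KO, 9.81 to 10.13 in WT), and endothelial markers in 5 of 7 (7.10 to 9.10 in KO, 7.15 to 7.42 in WT). Red blood cell markers rose in 2 of 3 cases (9.63 to 10.97 in KO, 9.0 to 9.95 in WT), and none of 3 epididymis markers passed (6.37 to 7.24 in KO, 6.51 to 6.64 in WT). The KO and WT ranges of the mean list level overlapped for the spermatocyte, spermatogonia, endothelial, red blood cell and epididymis lists. The part of these cell types in the changes of single genes and families was not tested.

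The KO effect itself was tested for a difference between the ages. In a fit to all 24 arrays, KO minus WT at 49 days differed from KO minus WT at 15 days for 11050 of 22639 probes (48.8%), more positive at 49 days for 6922 (30.6%) and more negative for 4128 (18.2%). After cyclic loess the split turned, with 36.1% of the calls more positive against 62.6% after quantile normalization. Pdzd8, a protein of organelle contacts, had a KO effect of -3.51 at 49 days and 0.63 at 15 days, and Car2 one of -4.03 at 49 days. Spem2 (-4.10), Noxred1 (-3.99) and Tppp2 (-4.15) had effects at 49 days, and like Car2 they were above background on no 15-day array of either genotype, so that their 15-day effect has no measured size. In the opposite direction, Ldhc, the lactate dehydrogenase of germ cells, had an effect of -0.64 at 49 days and -4.47 at 15 days, Piwil1, a piRNA-binding protein, -0.62 and -3.96, and Fabp9 -0.87 and -3.99. At 49 days the WT means of Ldhc (15.9) and Fabp9 (15.82) lay near the top of the scale, where a difference can be understated. Ldhc, Piwil1 and Fabp9 did not pass in the fit to the 49-day arrays (limma adjusted p = 0.128 for Ldhc, 0.250 for Piwil1 and 0.0916 for Fabp9). All 3 passed after scale normalization (-0.86, -1.13 and -1.09, limma adjusted p = 0.0347, 0.0297 and 0.0245 in the same order) and with array weights (3.38e-04, 0.00231 and 4.21e-05), and Fabp9 also passed without KO replicate A (0.0476) and without KO replicate F (0.0486). Klk1b21 had effects of 2.11 at 49 days and -0.79 at 15 days. Kcnh3, on no WT array of 49 days above background, has only the bound given above at that age.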

How the data were processed

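RNA was isolated from testis with Trizol and amplified into biotin-labelled complementary RNA, per the labels' protocols. The deposited table holds 1-colour intensity values that the authors did not normalize, for 45278 probes and 956 unnamed control rows, and its detection columns hold no values. The authors' deposited log2 values equal log2 and quantile normalization of all rows within 3.62e-05 and served as an alternative. The scanner software is not given in the sources used here. Gene symbols came from the platform annotation, updated by identifier through RefSeq: 34885 probes had 1 symbol, 18 had several and 10375 are unnamed here.

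Intensities were background-corrected by normexp from 946 dim control rows (median under 400, which rests on their level alone; the other 10 were left out) with an offset of 16 and quantile normalized with limma 3.58.1 in R 4.3.3. The offset understates changes of dim probes. Between 16267 and 19031 probes per array were above background, and precision is limited by having 6 arrays per group. The brighter part of the probes by mean level (a share of 0.5, 22639 probes) entered lmFit and eBayes (10 residual degrees of freedom, two-sided, Benjamini-Hochberg threshold 0.05), and the brightest tested probe stood for each gene. A gene above background on no array of a group has its fold given as a bound, set against that group's mean of, per array, the dimmest probe above background or the gene's own level where higher. The fit was also run on simulated data whose noise was independent between probes. Probes of the measured arrays vary together, so the simulation cannot give the rate of false calls here. The age difference was fitted to all 24 arrays.

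Genes named are Nsun2, the 14 largest rises and falls, and the 8 of each with the next largest moderated t. Also named are the 8 largest of each among the brightest 10% that these choices did not hold. Up to 2 passing members per direction of 57 symbol-defined families and the 5 largest age differences per direction complete the list. Unnamed gene models were passed over. One family is not reported here. Bright genes with a change near 0, which the rule also selects, are not listed, because the position of 0 moves with the scaling. The marker lists and families, like the comparison itself, were chosen with earlier results of these data known. Replicate letters were not shown to pair the samples: correlations of the deviations of same-lettered arrays ran from -0.209 to 0.198. The alternatives covered scaling, background correction, filters, slide blocks, array weights and the omission of each array.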

Additional observations from a re-analysis of the deposited data

Results flagged for a closer look

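In the groups of 6 arrays, single values stood far from the other 5 for 15 of 368 gene and group combinations examined, where chance alone would mark about 1 in 20. KO replicate D was the lowest KO array by a wide gap for Ldhc (13.44, the others from 15.34 to 15.85), Piwil1 (11.05, the others from 13.54 to 14.45) and Fabp9 (12.76, the others from 14.93 to 15.82). KO replicate F stood at 7.21 for Fndc3a, above the other KO arrays (5.14 to 5.78). Among WT arrays, replicate B was high for Ctsl (6.83, the others from 5.01 to 5.48) and low for Fastkd3 (7.88, the others from 8.58 to 8.75), genes that lie on the chromosome of Nsun2. The same array was low for Nsun2 itself, though not by a wide gap. WT replicate E was high for Kcnh3 (5.52, the others from 4.83 to 5.01) and low for Fndc3a (9.09, the others from 9.41 to 9.51). Smaller departures were WT replicate F for Car2 (11.32), WT replicate A for Spaca3 (12.98) and Klf12 (7.44), WT replicate C for Lrrc75b (6.36), and WT replicate D for Wdr13 (10.62) and H2al2c (6.92). WT replicate B was also marked for Ldhc (15.85), where the other 5 WT arrays share 1 value, 15.89, at the top of the quantile scale.

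The KO effect differed between 49 and 15 days for 11050 probes. The largest positive differences, 49 minus 15 days, were Ldhc (3.84, SE 0.87, limma adjusted p = 0.00154), Piwil1 (3.34), Fabp9 (3.12), Kcnh3 (2.95) and Klk1b21 (2.90). The largest negative ones were Car2 (-4.37, SE 0.67, limma adjusted p = 6.98e-05), Pdzd8 (-4.15), Spem2 (-4.12), Noxred1 (-4.08) and Tppp2 (-4.07). Kcnh3 was above background on no WT array of 49 days, and Car2, Spem2, Noxred1 and Tppp2 on no 15-day array, so the sizes and the order of these 5 differences rest in part on values not above background. Ldhc and Fabp9 lay near the top of the scale on the WT arrays of 49 days, where their effect can be understated.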

How the results depend on the processing

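The counts of changed genes and probes stayed within 1.5 times of 8088 and 14181 under most alternatives. The exceptions were the restriction to probes above background on all 12 arrays, with 8583 probes changed of 12692 tested (fewer probes enter that test), and a test against a minimum change of 1 (treat), with 412 probes (17 higher, 395 lower). Leaving out 1 array gave 7156 to 8682 genes, 12396 to 15259 probes and 9720 to 12973 probes whose effect differed between the ages. A fit with a replicate block, whose letters are not shown to pair samples, called 7428 genes and 12901 probes. The slide as a random block gave 7724 genes, and array weights gave 10460. Cyclic loess moved the share of higher calls among probes to 44.8% (6324 higher, 7785 lower), from 57.1%. The number of the 57 families whose median lay above that of all genes was 28, and 28 to 34 over the alternatives, but single families moved: the median of 37 families moved by at least 1 SD between KO arrays in 96 of 1482 family and setting combinations. With no filter 22 moved and 14 changed side of that of all genes, and among probes above background on all 12 arrays 18 moved and 9 changed side. Protein kinase A anchoring proteins stood at 0.04 with all 24 arrays in the fit (-0.79 in the 49-day fit), SOX factors at 0.97 above background on all 12 arrays (-0.21), and serpins at -0.01 with no filter (0.80). With no filter interferon-related genes stood at 0.13 (0.88) and class I and II MHC genes at 0.04 (0.90), while complement components stood at 0.71 (0.96). Among families that fell, Prss proteases then stood at -0.33 (-1.74), tubulins at -0.25 (-0.72) and coiled-coil domain genes at -0.53 (-1.30). Cilia and flagella associated proteins stood at -1.52 (-1.80). Of 4696 values of the 184 named genes under alternatives, 4682 kept direction and call, but sizes moved: over 1.5 times smaller for 68 of 179 passing genes without background correction and for 70 with the authors' log2 values, among them Tnfrsf12a (1.38 without correction, 3.06 with it), Igfbp3 (1.23, 2.61) and Kcnj6 (-0.78, -2.20). The 2 reversals were Prm1 at 0.049 under cyclic loess and Insl3 at -0.0597 under scale normalization, neither past the threshold, and the cause was not tested. Dim probes are limited by background: genes that a group measured above background on no array carry only a bound.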

Other observations

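Other motifs searched in the promoter windows on both strands gave these shares in the classes of genes. The MYB site AACNGNC was present in 36.6% of the promoters of genes that fell by 2 or more, 37.6% of all that fell, 31.3% of those that rose and 34.1% of all tested genes. The TATA box TATAAA was present in 10.1%, 8.82%, 7.56% and 7.93% of the same classes, and the GATA site AGATAA in 10.7%, 8.7%, 6.57% and 6.9%. Within the printed windows, TATAAA began 39 bases before the start of Cyp2a12, AGATAA lay in that of Spem2, and 3 matches to AACNGNC lay in that of Tnfrsf12a.

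Calls were spread over the range of levels, cut into 10 classes of equal size. In the dimmest class 22.7% of genes rose and 16.1% fell (median change 0.09), in class 4 from the bottom 47.4% rose and 24.1% fell (median 0.48), and in the brightest class 37.5% rose and 30.2% fell (median 0.002).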
